A study of Mus musculus with 10 samples.

Results

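The genes described here are the numbered zinc finger genes of the mouse, those whose symbol is Zfp followed by digits, apart from Zfp36. Of 219 such genes in the counts, 124 had at least 100 RNAseq reads summed over the 5 RNAseq libraries, among 8724 named genes that passed the same minimum, and each was measured by 1 transcript, the one with most RNAseq reads on average. A C2H2 zinc finger is a small fold of cysteines and histidines around a zinc ion, and several in a row let a protein read a stretch of DNA. Many of these proteins also carry a KRAB box, which recruits the scaffold Trim28 and with it histone methyltransferases and heterochromatin proteins, and such proteins are best known for silencing transposable elements and imprinted loci. The genes lie in clusters that arose by duplication, they are usually transcribed at a low level, and neighbours can share long stretches of sequence. Others of the family have a single finger or a few and act in splicing, RNA binding, ubiquitin transfer or ribosome assembly.

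The cultures came from the cortex of newborn (P0) FVB mice of both sexes and held a mixture of neurons and glia after 7 days. KCl was brought to 55 mM in some cultures for the last 3 h, which depolarizes neurons, while the others were left untreated, and cycloheximide, which stalls ribosomes on mRNA, was given to every culture before lysis. From each lysate an RNAseq library and a ribosome footprinting (RF) library of protected fragments of 26 to 34 nt were made. The libraries used here are those of 3 untreated cultures (1, 2 and 3) and 2 KCl-treated cultures (4 and 5), because the authors removed a further KCl replicate for its small library. The comparison asks how depolarization changes the abundance, the ribosome occupancy and the translation of these mRNAs.

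RNAseq libraries held between 3056286 and 3629959 reads and RF libraries between 1463654 and 7719915. The median zinc finger gene had between 57 and 77.5 RNAseq reads per library, and its CDS footprints numbered 90, 88 and 17.5 in untreated cultures 1 to 3 and 12 and 23 in KCl cultures 4 and 5. Of the cell type markers chosen, 0 of 5 measured for neurons passed the RNAseq test, against 2 of 6 for astrocytes, 2 of 6 for microglia, 1 of 7 for the oligodendrocyte lineage and 0 of 2 for fibroblasts, all of those that passed in RNAseq being lower after KCl. In CDS footprints 2 neuronal, 4 astrocyte, 3 microglial, 1 oligodendrocyte and 1 fibroblast marker were higher and 2 microglial and 1 fibroblast marker lower, and in TE (footprints per RNAseq read) 2 astrocyte markers were higher and 1 fibroblast marker lower. Of all named genes 27.7% were called in RNAseq, 34.9% in footprints and 3.38% in TE. The summed RNAseq level of the markers in CPM (reads scaled to the library total) was 9799 to 10569 in the untreated and 7810 to 8073 in the KCl cultures for astrocytes, 410.5 to 599.6 and 465.3 to 478.8 for neurons, and 116.2 to 139.7 and 82.8 to 106.1 for microglia. The corresponding ranges were 1232 to 1333 and 1115 to 1121 for the oligodendrocyte lineage and 420.4 to 505.3 and 334.4 to 382.2 for fibroblasts. The endothelial markers Cldn5 and Pecam1 were under the minimum of reads, and the part of cell composition in the results below was not tested. In bulk cultures, fewer cells of a type and less RNA per cell cannot be told apart.

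By a letter pattern for the C2H2 finger in the translated CDS, 117 of the 124 genes held at least 1 finger, 102 held at least 3, and Zfp142 held the most with 36. The 7 without a match were Zfp185, Zfp330, Zfp365, Zfp451, Zfp467, Zfp474 and Zfp703, so that for these the measured transcript does not bear out the family name by this pattern. A letter pattern of the KRAB box was found in 28 genes, and since the pattern is not complete the others cannot be taken to lack one. The 124 genes were therefore described in 3 classes, the 28 KRAB-matched genes, 75 others with at least 3 fingers and 21 with 0 to 2. Set beside them are 106 genes of other names that also had at least 3 fingers and the same minimum of reads. On chromosome 7 lay 31 of the 124 genes, and 48 lay within 500 kb of another one, among them 17 of the 28 KRAB-matched genes.

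The following 27-base stretches come from 4 of these genes and were found by a letter pattern of the finger linker in the translated CDS. Much of the identity between them therefore follows from the search. The 4 genes are the KRAB-matched ones among the 5 largest falls in RNAseq or the 5 largest in RF reported below. The stretches are the first linker between 2 fingers in each CDS, read from the GENCODE M21 transcripts on GRCm38, with capitals at the 17 positions that are identical in all 4. They are given 5′ to 3′ on the mRNA strand, and lie in coding exons at chr7:27748491-27748517 on the plus strand (Zfp60), chr7:29935487-29935513 on the minus strand (Zfp74), chr13:67517925-67517951 on the minus strand (Zfp87) and chr8:71968470-71968496 on the plus strand (Zfp961).
Zfp60: CACACtGGaGAGAAgCCcTatgaaTGt
Zfp74: CACACtGGgGAGAAgCCgTatgtgTGc
Zfp87: CACACcGGaGAGAAaCCcTacaagTGt
Zfp961: CACACtGGgGAGAAaCCtTttgaaTGt
The pattern of this linker was found 2 times in Zfp60, 14 times in Zfp74, 5 times in Zfp87 and 3 times in Zfp961. The authors retained multi-mapping reads and removed degenerate sequences from the transcriptome, so that a read from such a stretch can be counted on another family member or not at all. For 17 of the 124 genes, at least 5% of all 28-base windows of the CDS also occurred in a transcript of another gene. The share was 99.0% for Zfp706, 77.1% for Zfp617, 35.4% for Zfp414, 17.0% for Zfp60 and 15.1% for Zfp87, and values of these genes are uncertain to that extent.

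The genes were chosen by their RNAseq reads, through the minimum of 100 and the choice of transcript. No other measured value entered this rule, but the zinc finger genes as a group were chosen with earlier results of these data known. Just inside the minimum lay Zfp87 with 101 reads, Zfp74 and Zfp2 with 105 each, Zfp446 with 106 and Zfp13 with 112. Just outside lay Zfp503 and Zfp775 with 99 reads each, Zfp949 with 98, and Zfp839 and Zfp707 with 97 each, among 95 Zfp genes listed under the minimum. Of the 124 genes, 3 had too few CDS footprints for RF and TE. Zfp330, which codes for a nucleolar protein, had 1 CDS footprint in all, Zfp384 had 3 and Zfp422 had 0. On the same CDS there were also no more than 1 RNAseq read per library, while 5′UTR footprints of these genes were present in every RF library, 6 to 55 per library for Zfp422. Between 48.5% and 56.0% of their CDS windows were shared with other genes.

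After KCl, more of the zinc finger mRNAs fell than rose. In RNAseq, 36 of the 124 genes fell and 19 rose at an adjusted p under 0.05 (edgeR), and 69 did not pass the test. The median log2 fold change was -0.27 over the 124 genes and -0.02 over all named genes. Among all 8724 named genes 27.7% were called, 13.3% lower and 14.4% higher, against falls of 29.0% and rises of 15.3% of the zinc finger genes. In normalized CPM, reads scaled to the library total times its TMM factor, both KCl cultures lay below all 3 untreated cultures for 54 genes and above them for 24, and the groups overlapped for 46. Such a count was not made over all named genes, so these numbers have no background beside them.

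In RNAseq 10 of the 28 KRAB-matched genes (35.7%) fell and 2 rose, with a median log2 fold change of -0.70. Of the 75 other genes with at least 3 fingers 21 (28%) fell and 12 rose (median -0.15), and of the 21 with 0 to 2 fingers 5 (23.8%) fell and 5 rose (median -0.16). Genes of other names with at least 3 fingers gave 21 falls and 26 rises among 106, with a median of -0.02. The difference between classes was not tested, and the order of the shares of falls changed with the processing. With RNAseq reads on the CDS only, 3 of 28 KRAB-matched genes (10.7%) fell, against 16.2% and 20% of the other classes and 5.7% of all named genes. The class medians were then -0.72, -0.22 and 0.10, so the KRAB-matched median stayed lowest though fewer of its genes were called. Without KCl culture 5 the medians were -0.49, -0.19 and -0.10. The summed normalized CPM of the 28 KRAB-matched mRNAs was 570.3, 425.8 and 452.8 without KCl and 374.2 and 379.0 with it. Both KCl sums were below all 3 untreated sums, and untreated culture 1 stood above the rest. For the 75 genes the sums overlapped, with 2513, 2490 and 2459 untreated and 2421 and 2513 after KCl. For the 21 genes they were higher after KCl, with 1430, 1397 and 1409 untreated and 1709 and 1653 after KCl. Of these sums Zfp207 alone took 225.1, 198.4 and 219.1 untreated and 593.5 and 553.6 after KCl.

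The KRAB-matched mRNAs were also the scarcest, with a median of 177 RNAseq reads over the 5 libraries against 370 for the 75 genes and 509 for the 21. Among all named genes with fewer than 600 reads, 15.7% fell and 7.48% rose, with a median log2 fold change of -0.15. The 93 zinc finger genes in that range gave 29 falls and 9 rises, with a median of -0.35. When at least 300 reads were required, 4 KRAB-matched genes were left, of which 1 (25%) fell. The shares were 35.4% and 33.3% for the other classes and 15.2% for all named genes. The class medians were then -0.06, -0.17 and -0.13. With the RPKM minimum of 10 that the study used, 1 KRAB-matched gene was left, which was not called. Without KCl culture 4 the median log2 fold change was -0.24 over the 124 genes and -0.64 over the KRAB-matched. Over all named genes it was -0.02. Without KCl culture 5 these medians were -0.24, -0.49 and -0.02.

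**Figure D1:**
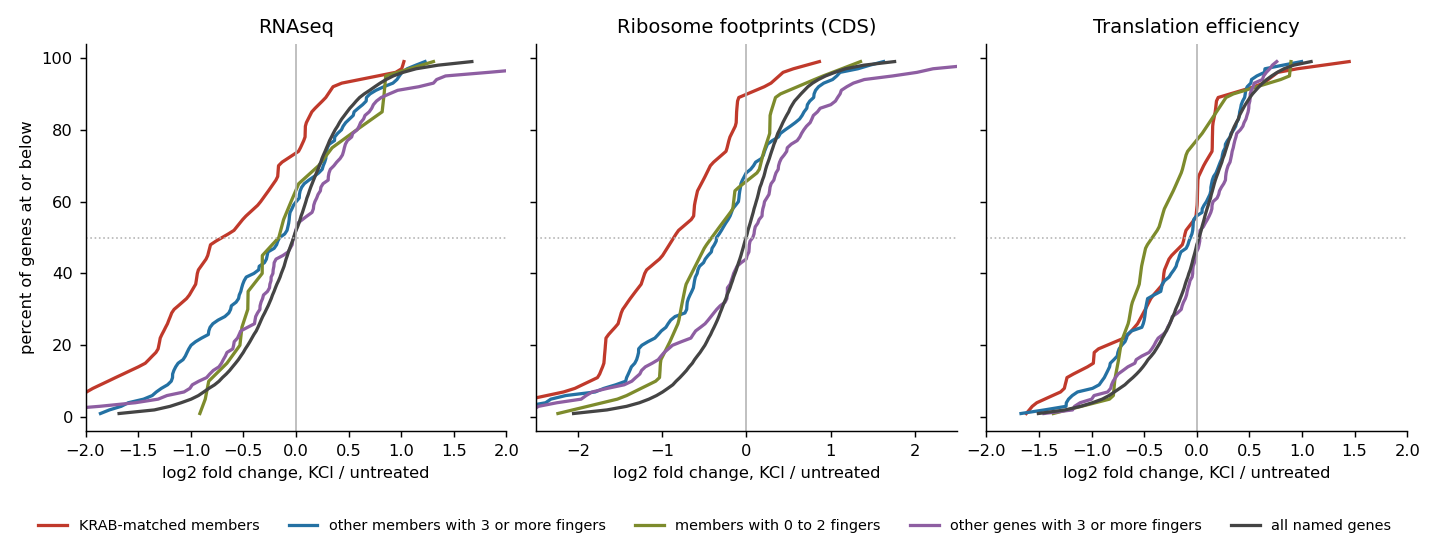
Cumulative distributions of the log2 fold change (KCl over untreated, x axis) for RNAseq, CDS footprints and translation efficiency, as the percent of genes at or below each value (y axis), drawn from percentiles 1 to 99 of each class. The KRAB-matched curve lies leftmost in RNAseq and footprints, where its medians are -0.70 and -0.86, while the curve of all named genes crosses 50% close to 0.

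The largest falls in RNAseq were those of Zfp60, Zfp87, Zfp74, Zfp691 and Zfp746. Of these, Zfp87 and Zfp74 lay just inside the minimum of reads, where the rule admits falls more readily than rises. Zfp60, a KRAB zinc finger gene on chromosome 7 (27731389-27753702) with 19 fingers, had normalized RNAseq CPM of 22.5, 14.2 and 15.9 untreated and 2.91 and 2.62 after KCl. Every KCl value was far below every untreated value, and the log2 fold change was -2.66 ± 0.39 (SE; edgeR adjusted p = 5.41e-08). Its footprints fell likewise, from 13.4, 16.1 and 12.3 to 2.88 and 1.49 CPM, a log2 fold change of -2.83 ± 0.42 (edgeR adjusted p = 2.58e-07). These rest on 4 footprints in each KCl culture, and with RNAseq reads on the CDS only the RNAseq fall was -1.51 and not called.

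Zfp74, with 18 fingers, held 9.08, 9.37 and 8.90 RNAseq CPM untreated and 2.26 and 2.32 after KCl. The cultures of each group were close together and far from the other group, and the fall was 1.97 on the log2 scale (SE 0.46; edgeR adjusted p = 0.000573). Its CDS footprints did not follow in the same way, with 4.14, 3.75 and 7.21 CPM untreated and 4.32 and 3.36 after KCl. Those groups overlapped, and the log2 fold change of -0.24 ± 0.48 was not called (edgeR adjusted p = 0.743). For Zfp87, with 16 fingers, the RNAseq log2 fold change was -2.14 ± 0.49 and that of footprints -2.09 ± 0.63. The first was not called without KCl culture 5 (-1.45) and was -3.30 without KCl culture 4. The second was not called without KCl culture 4 (-1.48) or with DESeq2 (-2.12), and was -7.46 without KCl culture 5, where the remaining KCl library held 0 footprints and the size is not fixed. With RNAseq reads on the CDS only, neither Zfp74 (-1.93) nor Zfp87 (-2.08) was called in RNAseq.

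Zfp746, also known as PARIS, is a repressor of the gene for the coactivator PGC-1alpha and a substrate of parkin. Its RNAseq CPM were 26.9, 31.4 and 24.8 untreated and 6.47 and 8.72 after KCl, and its footprint CPM 26.3, 19.8 and 19.5 against 3.60 and 4.85. Neither assay showed overlap between the groups, and the log2 fold changes were -1.86 ± 0.29 in RNAseq and -2.35 ± 0.32 in RF (edgeR adjusted p = 2.61e-07 and 4.12e-08). Zfp691, with 7 fingers, fell by 1.86 on the log2 scale in RNAseq and by 2.91 in RF, the latter from 29, 30 and 2 footprints to 1 and 1. Its RF change was not called without KCl culture 5 (-2.39) or with DESeq2 (-2.83), and its RNAseq change was -3.83 on CDS reads only.

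The remaining KRAB-matched genes that fell in RNAseq were Zfp12, Zfp81, Zfp324, Zfp386, Zfp617, Zfp777 and Zfp961, with log2 fold changes from -1.71 for Zfp324 to -1.03 for Zfp386. All 10 KRAB-matched genes called lower had both KCl values below all untreated values, as had 20 of the 21 and 4 of the 5 called lower in the other classes. The calls were made from these same values, so this count largely follows from them and adds no support of its own. The 21 falls among the other genes with at least 3 fingers ran from -1.86 to -0.55 and the 5 among genes with 0 to 2 fingers from -0.93 to -0.46.

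Among the rises in RNAseq, none was larger than that of Zfp207 (BuGZ), a protein with 2 fingers that binds the checkpoint protein Bub3 and takes part in spindle assembly. It had 225.1, 198.4 and 219.1 RNAseq CPM untreated and 593.5 and 553.6 after KCl, with footprints of 240.4, 236.0 and 204.2 against 671.3 and 600.2 CPM. The groups were far apart in both assays, and the rises of 1.42 ± 0.13 and 1.47 ± 0.09 on the log2 scale (edgeR adjusted p = 5.55e-15 and 1.22e-19) left its TE log2 fold change at 0.05 ± 0.17. Zfp335, a subunit of histone H3K4 methyltransferase complexes needed for neural progenitors, had RNAseq CPM of 15.2, 14.5 and 24.2 against 34.0 and 41.3, and footprint CPM of 10.2, 8.59 and 10.1 against 31.0 and 36.9. Its rise was 1.07 ± 0.23 in RNAseq and 1.85 ± 0.22 in RF, the largest in RF among the 121 genes tested, and its TE change of 0.65 ± 0.34 was not called (edgeR adjusted p = 0.366).

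Zfp142, the gene with 36 fingers, rose by 1.29 ± 0.18 in RNAseq and 1.54 ± 0.18 in RF on the log2 scale. Zfp131, a BTB-domain transcription regulator, rose by 1.20 ± 0.23 and 1.07 ± 0.19. Zfp622, which takes part in maturation of the large ribosomal subunit, rose by 1.01 ± 0.19 and 1.37 ± 0.14, and Zfp516, an activator of brown fat genes, by 0.83 ± 0.16 and 1.08 ± 0.17. For each of these 4 genes both KCl cultures lay above all untreated cultures in both assays.

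Neighbouring genes did not always move together. On chromosome 7, Zfp84, Zfp790, Zfp74, Zfp568 and Zfp260 lie in a run of 339.1 kb. In RNAseq, Zfp74 fell by 1.97, whereas Zfp568 rose by 1.04 ± 0.30 on the log2 scale (edgeR adjusted p = 0.00567), and the other 3 had log2 fold changes of 0.09, 0.03 and -0.08, none of which was called. Zfp568, a KRAB protein that silences a placental transcript of Igf2, had CPM of 7.32, 9.68 and 9.86 untreated and 22.6 and 14.2 after KCl. The groups did not overlap, but its change was not called without KCl culture 4 (0.67) or with RNAseq reads on the CDS only (1.31), and its footprints were 10, 7, 2, 2 and 5, too few to follow. In a run of 6 genes on chromosome 6 over 568.2 kb, Zfp956, Zfp777 and Zfp746 fell by 1.04, 1.44 and 1.86, Zfp212 rose by 0.97, and Zfp282 and Zfp467 were not called. On chromosome 8, Zfp617 and Zfp961 lie within 47.5 kb and fell by 1.22 and 1.17. Zfp617 is the gene that shares 77.1% of its CDS windows, and the Zfp961 call was lost without culture 1 (-0.84), 4 (-1.42) or 5 (-0.94) with DESeq2 (-1.17) and with CDS reads only (-1.10). Of the 31 genes on chromosome 7, 9 fell and 2 rose, beside 36 falls (29.0%) and 19 rises (15.3%) among all 124 genes. Of all named genes 13.3% fell and 14.4% rose.

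Footprints on the CDS also fell more often than they rose. Of 121 genes with at least 20 CDS footprints, 37 fell and 17 rose, and the median log2 fold change was -0.49, against -0.003 for all named genes. The background was 34.9% called of 8385 named genes, 16.3% lower and 18.6% higher, against 30.6% and 14.0% of the zinc finger genes. Both KCl cultures were below the untreated cultures for 58 genes and above them for 21, with overlap for 42. This count, too, was not made over all named genes. Scaling by library totals instead of TMM gave 47 falls (38.8%) and 11 rises (9.09%), against 25.1% and 12% of all named genes. It shifted the median of all named genes to -0.17. Without KCl culture 5, which left the shallower KCl library alone, the median of the zinc finger genes was -0.42, against -0.007 for all named genes.

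By class, 11 of 28 KRAB-matched genes fell and 1 rose in RF (median -0.86), and 25 of the 28 had a log2 fold change below 0. The share below 0 was 50.2% over all named genes and 56.8% over those with fewer than 600 RNAseq reads. Of the 73 others with at least 3 fingers 19 fell and 13 rose (median -0.35), and of the 20 with 0 to 2 fingers 7 fell and 3 rose (median -0.41). Genes of other names with at least 3 fingers gave 17 falls and 24 rises among 103, with a median of 0.08. The KRAB-matched median was -0.66 without KCl culture 4 and -1.10 without KCl culture 5. With DESeq2, 4 of the 28 fell (14.3%) and 0 rose, against 9% and 13.1% of all named genes. Summed over the 28 KRAB-matched genes, footprint CPM was 352.5, 385.0 and 331.1 untreated and 273.0 and 271.4 after KCl, again without overlap. Sums over the 75 genes were 1509, 1608 and 1437 against 1514 and 1478, with overlap, and those over the 21 genes 796.3, 851.6 and 776.3 against 1261 and 1151. Within the last sums Zfp207 alone took 240.4, 236.0 and 204.2 untreated and 671.3 and 600.2 after KCl.

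The largest fall in RF was that of Zfp41, with 4 fingers, whose footprints numbered 66, 54 and 11 untreated and 0 and 3 after KCl. That is a log2 fold change of -3.49 ± 0.60 (edgeR adjusted p = 6.98e-06), beside an RNAseq change of -1.68 ± 0.28, which with CDS reads only was -1.36 and not called. Without KCl culture 5 the remaining KCl library held 0 footprints, and the fitted RF change of -8.16 has no fixed size. KRAB-matched Zfp961 had 21, 11 and 2 footprints against 1 and 0 and a change of -2.99 ± 1.16. Zfp474, which has no finger by the letter pattern, had 42, 33 and 8 against 3 and 1 and a change of -2.42 ± 0.65. In both genes all KCl values were below the untreated ones, but without KCl culture 5 the changes were -1.57 and -1.32 and neither was called, and the call for Zfp961 was also lost without untreated culture 1 (-2.56) and with DESeq2 (-2.97). Without KCl culture 4 the changes were -6.32, against a KCl library with 0 footprints, and -3.77.

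**Figure D2:**
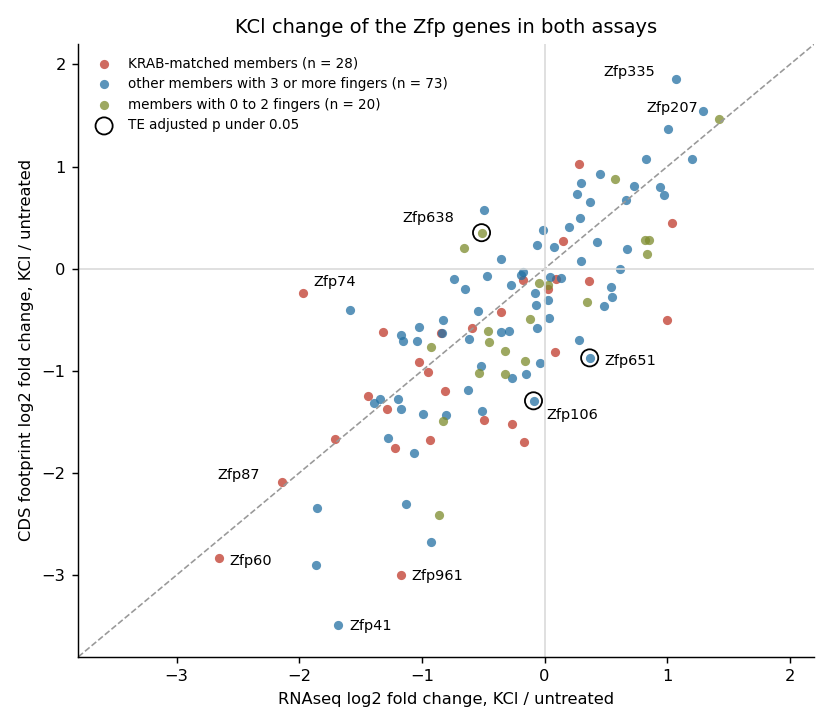
RNAseq log2 fold change (x axis) against CDS footprint log2 fold change (y axis), KCl over untreated, for the 121 genes tested in both, by class, with the dashed line at equal change and rings on the 3 genes whose TE change passed the test. Zfp60 (-2.66 and -2.83) and Zfp207 (1.42 and 1.47) lie near the line, and Zfp106 (-0.09 and -1.29) lies well below it.

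Translation efficiency (TE), the CDS footprints per RNAseq read, changed for few of these genes. Of 121 tested, Zfp106 and Zfp651 fell and Zfp638 rose at an adjusted p under 0.05 (edgeR, assay by treatment interaction). An unadjusted p under 0.05 was found for 17 of the 121, and for 1266 of the 8385 named genes. The background was 3.38% called of 8385 named genes, 2.4% lower and 0.978% higher. The median TE log2 fold change was -0.14, against 0.02 for all named genes. No KRAB-matched gene was called by edgeR, 4 of 28 having an unadjusted p under 0.05, and DESeq2 called Zfp106 alone among the 34 zinc finger genes for which it gave an adjusted p. In simulated counts with a log2 change of 1.5, edgeR recovered 50% of changed transcripts below the median read number in TE, against 89% in RNAseq. Recovery was not computed for the zinc finger genes by themselves.

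Zfp106, an RNA-binding protein required by motor neurons and muscle, showed the clearest difference between the assays. Its RNAseq CPM were 190.3, 179.3 and 174.6 untreated and 168.8 and 172.0 after KCl, a log2 fold change of -0.09 ± 0.14 that was not called. Its CDS footprint CPM were 95.3, 115.0 and 101.0 against 41.8 and 42.9, from 713, 736 and 140 footprints against 58 and 115. The KCl cultures were thus far below the untreated ones in RF and only just below them in RNAseq. TE, here RF RPKM over RNAseq RPKM, was 0.801, 1.05 and 0.943 untreated and 0.388 and 0.394 after KCl, and the log2 fold change of TE was -1.20 ± 0.22 (edgeR adjusted p = 1.19e-05). This call was kept in every alternative run and without each culture in turn.

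For Zfp651, a BTB-domain zinc finger gene with 7 fingers, TE was 1.34, 1.12 and 1.22 untreated and 0.570 and 0.470 after KCl. RNAseq CPM rose from 43.6, 43.2 and 40.1 to 50.1 and 59.0, which was not called, and footprint CPM fell from 20.2, 16.4 and 16.6 to 10.1 and 9.69. The groups did not overlap in either assay, and the TE log2 fold change was -1.24 ± 0.35 (edgeR adjusted p = 0.0204). It was not called without culture 3 (-1.25), 4 (-1.35) or 5 (-1.07), with DESeq2 (-1.23) or with RNAseq reads on the CDS only (-0.80). The RF change, -0.87, was not called without culture 1 (-0.74) or 5 (-0.84) or with DESeq2 (-0.86).

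Zfp638, which silences unintegrated retroviral DNA, moved the other way. Its RNAseq CPM were 79.6, 52.6 and 72.8 untreated and 55.6 and 40.4 after KCl, with overlap, and its footprint CPM 129.2, 159.1 and 128.4 against 193.0 and 167.8, without overlap. It was the gene called in opposite directions by the assays, with log2 fold changes of -0.51 ± 0.18 in RNAseq and 0.35 ± 0.11 in RF. The TE log2 fold change was 0.88 ± 0.22 (edgeR adjusted p = 0.0049), and was not called without culture 3 (0.78), 4 (1.01) or 5 (0.75) or with DESeq2 (0.88). The RNAseq change was not called without culture 1 (-0.39), 3 (-0.47) or 5 (-0.29) or with DESeq2 (-0.51). The RF change was not called without culture 1 (0.28) or 4 (0.26), with library totals in place of TMM (0.19) or with DESeq2 (0.36).

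The start codons of these 3 CDS and the bases around them, where ribosomes begin on the measured transcripts, read as follows on the mRNA strand, with the ATG in capitals. They lie at chr2:120555270-120555296 on the minus strand (Zfp106) and chr6:83928843-83928869 on the plus strand (Zfp638) of GRCm38. The Zfp651 stretch is spliced from 2 exons between the ends of chr9:121760211-121762630 on the plus strand.
Zfp106: gatctggtcactATGgtacgagaacga
Zfp638: ttgaaagtagccATGtcgagacccagg
Zfp651: cgccgcggcaccATGttgctggttgag

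**Figure D3:**
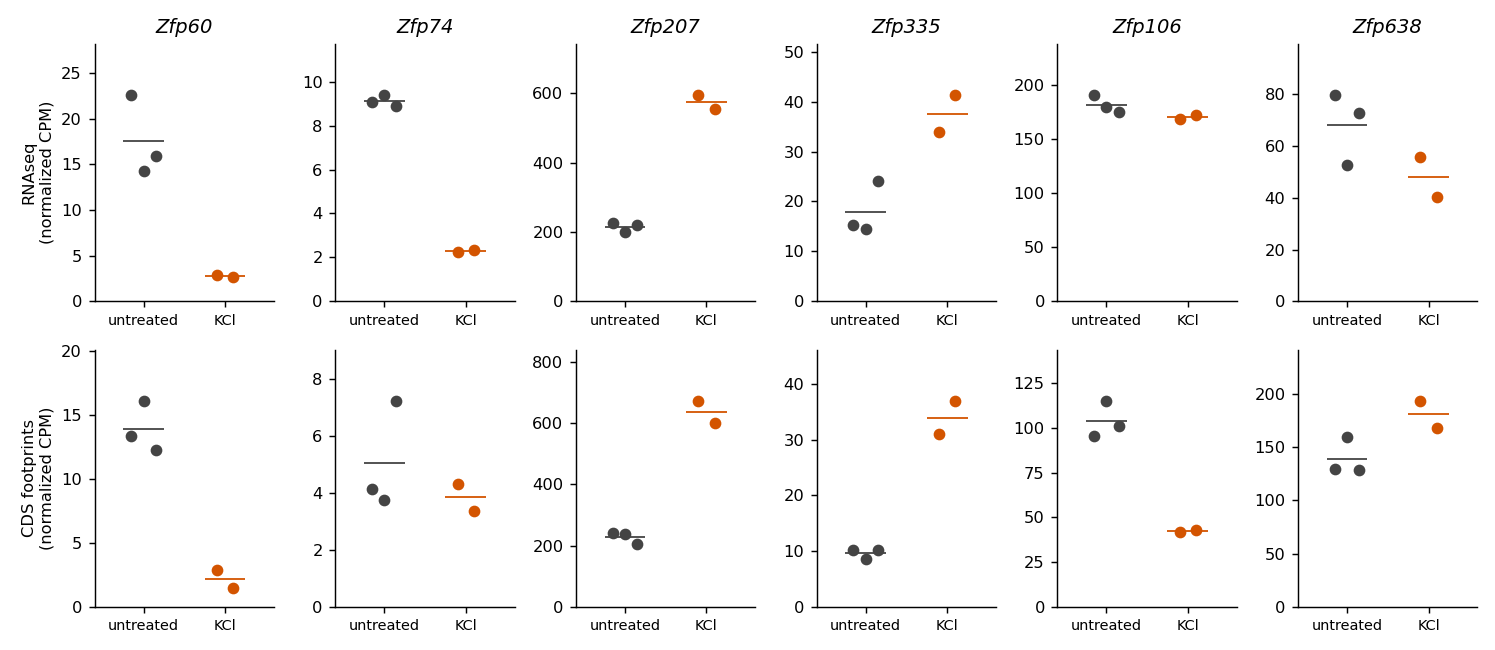
Normalized CPM in each culture (points; y axes start at 0 and differ between panels) in RNAseq (top) and CDS footprints (bottom) for 6 zinc finger genes, with a line at the mean of the 3 untreated and the 2 KCl cultures. Zfp60 falls and Zfp207 and Zfp335 rise in both rows, Zfp74 falls in RNAseq only by the test, Zfp106 falls in footprints with RNAseq close to untreated, and for Zfp638 footprints are higher after KCl while RNAseq is not.

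Further genes with textbook roles act as transcription factors or cofactors. The GC-box binding proteins Zfp148 and Zfp281, which are close relatives, were not called in either assay, with RNAseq log2 fold changes of -0.18 and 0.07 and RF changes of -0.03 and 0.21. Zfp143, an activator bound at many promoters, rose in RF by 0.92 ± 0.19 (edgeR adjusted p = 0.000105), from 22.8, 24.2 and 15.2 CPM to 43.9 and 40.6, with an RNAseq change of 0.45 that was not called. Zfp292, a large protein linked to growth hormone transcription, rose in RF by 0.37 ± 0.13 and not in RNAseq (-0.02), and the RF call was lost without culture 1 (0.32), 3 (0.31), 4 (0.31) or 5 (0.46), with library totals (0.21) and with DESeq2 (0.39). Zfp462, a many-finger protein that guards heterochromatin in pluripotent cells, fell by 0.61 ± 0.16 in RNAseq and by 0.68 ± 0.14 in RF. Zfp423 and Zfp521 are related partners of early B cell factors. Zfp423 rose by 0.48 ± 0.16 in RNAseq, a call lost without culture 3 (0.41) or 5 (0.42) and with library totals (0.36), and Zfp521 fell in RF by 1.03 ± 0.35, a call lost without culture 1 (-0.99) or 5 (-0.69) and with DESeq2 (-0.93).

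Of the genes that act on RNA or ribosomes, Zfp326, of a complex that couples splicing to RNA polymerase II, fell in RF by 0.81 ± 0.17 with 51.7, 49.2 and 55.6 CPM untreated and 31.7 and 27.96 after KCl, and without culture 5 that change was -0.70 and not called. Zfp830, a splicing-associated protein, rose by 0.85 ± 0.18 in RNAseq and had an RF change of 0.28 that was not called. The RNAseq change was not called without culture 4 (0.60) or on CDS reads only (0.72). Zfp598, the ubiquitin ligase that senses collided ribosomes, had changes of 0.34 in RNAseq and -0.33 in RF, and the double-stranded RNA binding Zfp346 of -0.07 and -0.35, none of them called. Zfp217, a subunit of corepressor complexes, fell by 1.39 ± 0.34 in RF, with an RNAseq change of -0.51 that was not called, and without culture 5 the RF change was -1.01 and not called. The ubiquitin ligase Zfp91, the Disc1 partner Zfp365, the nucleolar Zfp330 and the small protein Zfp706 were not called in the assays in which they were tested.

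The corepressor partners through which KRAB zinc finger proteins act were given by a list of 29 genes, of which 19 were measured and Trim28 was not analysed here. In RNAseq 4 of the 19 rose and 0 fell (median log2 fold change 0.03), the background being 27.7% called in either direction. In RF 5 of 18 rose and 2 fell, against a background of 18.6% and 16.3%, and in TE 0 rose and 1 fell, against 0.978% and 2.4%.

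Before any treatment the median TE of the zinc finger mRNAs was lower than that of all named genes. TE is here the CDS footprint RPKM over the RNAseq RPKM of the whole transcript, so it also depends on both lengths. Median TE over the untreated cultures was 1.30 for 121 genes, with quartiles of 0.778 and 2.28, against 1.98 for all named genes. It was lower in every culture, with medians of 1.28, 1.48 and 1.27 untreated and 1.30 and 1.15 after KCl, against 1.91, 1.92 and 1.95 and 1.91 and 1.92 for all named genes. Restricted to RNAseq reads on the CDS, the medians were 1.82 and 2.58. Median TE was 1.66 for the KRAB-matched genes, 1.27 for the others with at least 3 fingers, 1.62 for those with 0 to 2 and 1.52 for genes of other names with at least 3 fingers. These levels were not tested. Of 115 genes with at least 50 untreated footprints, 39 had a TE under 1 and 39 a TE over 2.

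The lowest TE was that of Zfp703, a corepressor amplified in breast cancer, with 0.205, 0.158 and 0.239 in the untreated cultures. The transcript measured has a CDS of 384 nt without a finger, and 784, 658, 142, 93 and 147 footprints in cultures 1 to 5 were counted on its 3′UTR of 174 nt, against 128, 119, 31, 9 and 38 on the CDS. Its RNAseq fall of 0.45 rests on reads outside the CDS, since with CDS reads alone (5, 11, 8, 5 and 12) the change was 0.12. The fall was not called without culture 2 (-0.29) or 4 (-0.27) or with DESeq2 (-0.45). On RNAseq reads of the CDS only, its TE was 11.7, 5.71 and 8.94 untreated, so its place at the low end rests on RNAseq reads outside the CDS. Next came Zfp664 (0.195, 0.346 and 0.192), Zfp423 (0.352, 0.285 and 0.334), Zfp523 (0.434, 0.269 and 0.363) and Zfp414 (0.716, 0.402 and 0.153). Each of these 5 genes overlapped the next in the order, and Zfp414 spread the most. Zfp664 rose in RNAseq by 0.55 ± 0.14, with 159.9, 144.2 and 179.3 CPM against 236.8 and 236.3, a rise that was not called on CDS reads only (0.14). Its TE after KCl, 0.139 and 0.130, was below all untreated values, whereas on CDS reads only it was 0.683, 1.76 and 0.742 untreated and 0.851 and 0.653 after KCl, with overlap and not among the 5 lowest. By all RNAseq reads, the TE change of -0.88 ± 0.36 was not called (edgeR adjusted p = 0.185).

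The highest TE was that of Zfp24, required for myelination, with 7.19, 7.66 and 8.45 untreated and 9.09 and 10.8 after KCl. It was followed by KRAB-matched Zfp846 (3.63, 6.04 and 11.9), Zfp319 (7.15, 6.80 and 4.10), Zfp451, a SUMO ligase (4.50, 6.03 and 6.33), and KRAB-matched Zfp871 (3.89, 6.57 and 5.17). All untreated values of Zfp24 were above those of Zfp319, Zfp451 and Zfp871, while Zfp846 overlapped all of them. On CDS reads only, Zfp24 had a TE of 6.39, 12.8 and 10.4 and Zfp846 of 1.01, 2.18 and 2.54 untreated, and none of these 5 genes was among the 5 highest.

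**Figure D4:**
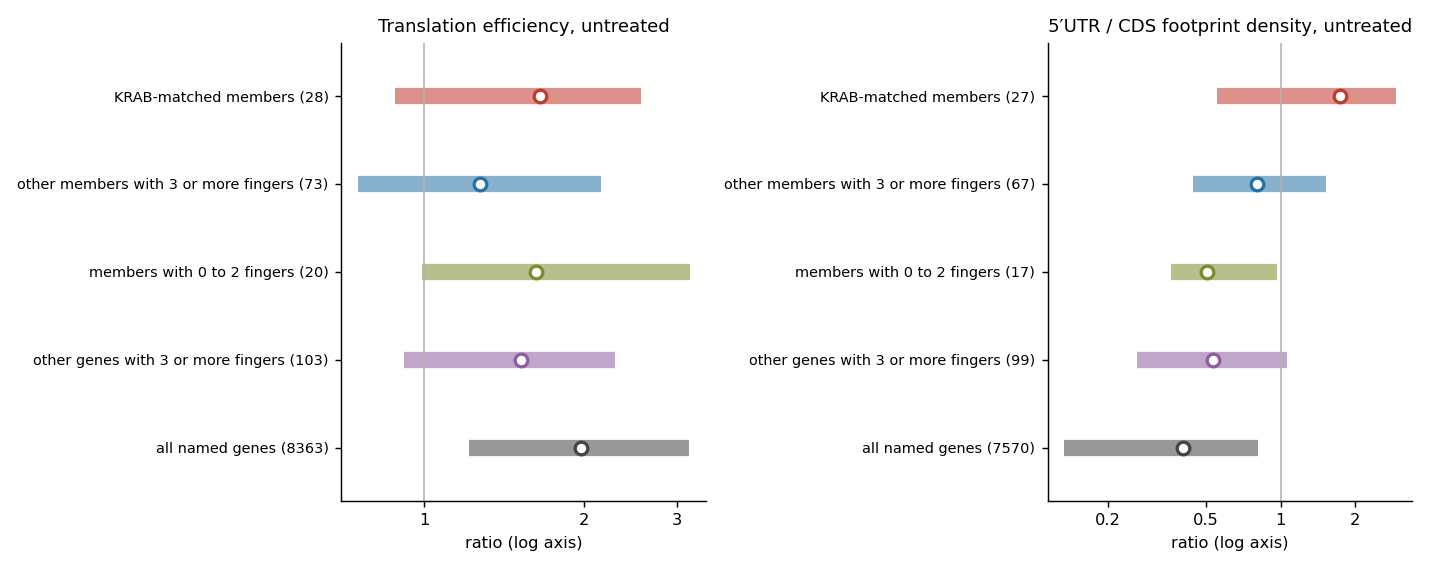
Translation efficiency (left) and the ratio of 5′UTR to CDS footprint density (right) in untreated cultures by class, on log axes, with the number of genes in parentheses. Circles are medians and bars run from the lower to the upper quartile over genes. The classes of zinc finger genes have TE medians between 1.27 and 1.66, below the 1.98 of all named genes, and 5′UTR ratios from 0.503 to 1.74, above 0.402.

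Ribosomes on the 5′UTR gave the most distinct picture. In the untreated cultures, 5′UTR footprints per nt over CDS footprints per nt had a median of 0.861 over 111 zinc finger genes with a 5′UTR of at least 50 nt, against 0.402 over 7570 named genes. The 5′UTR was more densely covered than the CDS in 51 of the 111 (45.9%), against a background of 17.8%. The KRAB-matched genes had a median of 1.74 and a ratio above 1 in 17 of 27. Median ratios were 0.800 for the others with at least 3 fingers, 0.503 for those with 0 to 2 and 0.535 for genes of other names with at least 3 fingers. After KCl the medians were 1.12 for the zinc finger genes and 0.456 for all named genes. These ratios carry no test.

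When footprints were pooled over the genes within each culture, the ratio was 1.12, 0.958 and 1.63 in untreated cultures 1 to 3 and 1.18 and 1.21 in the KCl cultures, against 0.536, 0.485 and 0.721 and 0.557 and 0.616 for all named genes. For the KRAB-matched genes it was 1.82, 1.46 and 2.92 untreated and 2.71 and 2.45 after KCl. They were highest in all 5 cultures, and untreated culture 3, the shallowest RF library, was above the other 2 untreated cultures in every class. The KCl ratios lay within the range of the untreated cultures. Per RNAseq RPKM, 5′UTR footprints had a median of 3.52 for KRAB-matched genes, 1.42 for all zinc finger genes and 0.845 for all named genes. An upstream ATG was present in 57.3% of the zinc finger 5′UTRs and in 51.7% of all, and the median 5′UTR length was 215 nt against 186 nt. For the 3 classes the shares were 60.7%, 60.0% and 42.9% and the lengths 218.5, 224 and 166 nt. Genes of other names with at least 3 fingers had 67.9% and 233.5 nt. The part of upstream ATGs in the ratios was not tested.

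**Figure D5:**
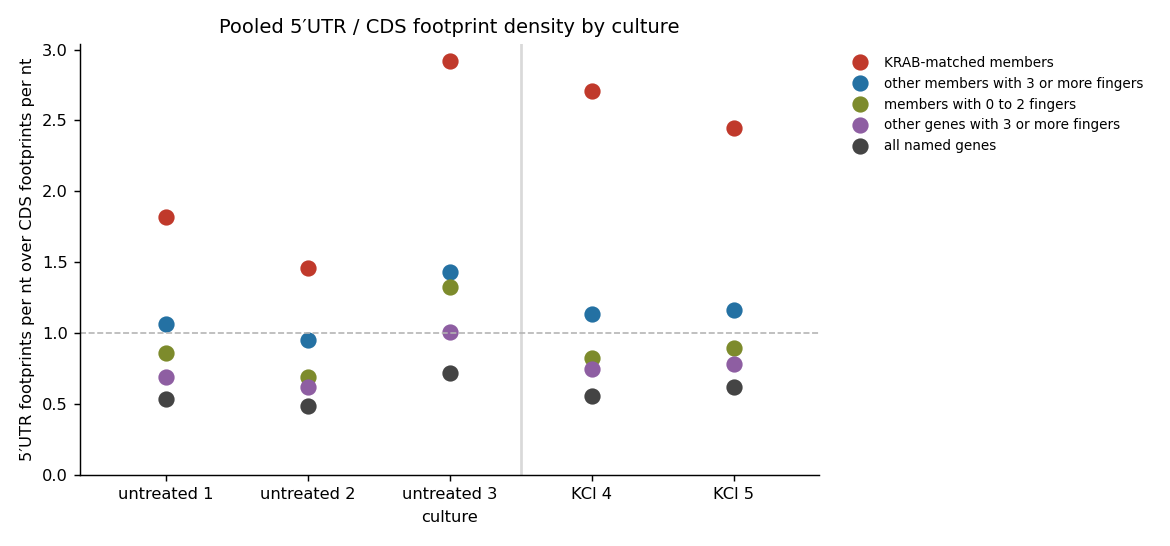
Pooled 5′UTR over CDS footprint density (y axis, footprints per nt over footprints per nt) in each of the 5 cultures for the 3 classes of zinc finger genes, genes of other names with at least 3 fingers, and all named genes. In each culture the KRAB-matched genes are highest (1.46 to 2.92) and all named genes lowest (0.485 to 0.721).

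The 5 highest ratios among genes with at least 50 untreated CDS footprints were those of KRAB-matched Zfp790 (4.77), Zfp251 (4.71) and Zfp74 (4.71), and of Zfp664 (3.92) and Zfp13 (3.65). Zfp664 rests on the most reads, with 275, 218 and 79 footprints on its 5′UTR of 1005 nt untreated and 51 and 106 after KCl, against 45, 60, 9, 9 and 16 on the CDS. Its ratios were 4.78, 2.84, 6.87, 4.43 and 5.18, above 1 in all 5 cultures and with the KCl values inside the untreated range. In RNAseq, too, its CDS of 786 nt held few reads, 30, 18, 28, 23 and 31 in cultures 1 to 5. The whole transcript of 4092 nt held 546, 477, 564, 732 and 813. The part of this in the ratio was not tested. Zfp251 had 63, 29, 7, 13 and 26 footprints on the 5′UTR and 24, 26, 3, 1 and 7 on the CDS. The other 3 genes had ratios of at least 2.77 in every culture, from few reads. All 5 of these 5′UTRs hold upstream ATGs, 4 in Zfp790, 9 in Zfp251, 3 in Zfp74, 11 in Zfp664 and 6 in Zfp13. Printed here for each gene, with the ATG in capitals, is the one that opens the longest reading frame ending inside the 5′UTR.
Zfp790: caagagtacgcaATGacagccctgagc
Zfp251: atgtgaaggacgATGacttttaagttt
Zfp74: cccccccctctcATGatgcttacattg
Zfp664: gcctgccatctgATGggcaggaggcaa
Zfp13: tagggaaggcacATGgaaatcggctcg
They lie in 5′UTR exons at chr7:29816182-29816208 (plus strand), chr15:76871101-76871127 (minus), chr7:29951737-29951763 (minus), chr5:124885031-124885057 (plus) and chr17:23586092-23586118 (minus) of GRCm38. The frames are 68, 100, 9, 38 and 59 codons long in that order, and begin 252, 433, 78, 501 and 226 nt before the CDS. Counts per region do not say where on the 5′UTR a footprint lay, so its place relative to these ATGs was not analysed here.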

How the data were processed

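The authors used Trimmomatic 0.32 for trimming and STAR 2.3.1z8 to remove rRNA, aligned with bowtie2 2.2.2 to an mm10 transcriptome (Ensembl 75) without degenerate sequences, keeping reads that map to several transcripts, and counted them with BEDTools 2.20.1. The deposited values are raw read counts per transcript region, without normalization, and a region without a read is not listed. The letter of the CDS took 90.5 to 93.3% of RF reads, and that of the 5′UTR 6.04 to 8.56%. Positions around start and stop codons, which the study left out, could not be removed from such counts. RNAseq libraries were not strand-marked by the kit named, so antisense reads cannot be told apart.

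Of 22534 transcripts 22172 were matched to GENCODE M21 (GRCm38) for symbols, lengths and sequences. RNAseq was the sum over all regions, RF the CDS. RNAseq and RF were each tested with edgeR 4.0.16 (quasi-likelihood, robust, TMM within each assay) over 15022 transcripts with at least 100 RNAseq reads, and 14463 with at least 20 CDS footprints for RF and TE, and p-values were adjusted by Benjamini-Hochberg over all of them. TE was tested as the assay by treatment interaction, blocked by culture, because both libraries of a culture came from 1 lysate. The SE of a fold change is its size over the square root of F, an approximation. With 3 against 2 cultures an exact permutation test cannot go below p = 0.1. Nothing states that cultures came from separate litters, so p-values measure the spread between these cultures. No pair of replicate libraries held the same values.

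The zinc finger genes, lists and classes were chosen with earlier results of these data known, and the letter patterns that define the classes after the files were read. Named genes are the 5 largest rises and falls past the test per comparison, the 5 highest and lowest in baseline TE, the 5 highest in 5′UTR density, and 23 genes of a list of 31 with textbook roles, 46 in all. Neighbours, and the remaining names in counts, were chosen after values were seen. On simulated counts with 200 transcripts changed by 1.5 (log2), edgeR recovered 94.5% in RNAseq over 15022 transcripts, and 91.5% in RF and 74.0% in TE over 14463. Computations used R 4.3.3 and Python 3.11.15.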

Additional observations from a re-analysis of the deposited data

How the results depend on the processing

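Depth limits these results: the median zinc finger gene had 12 to 23 CDS footprints in the KCl libraries and fewer than 100 RNAseq reads in any library. With the RPKM filter, 21 of the genes remained and the calls were 14 in RNAseq (7 lower and 7 higher) and 12 in RF (6 lower and 6 higher). In RNAseq 33.3% were thus lower and 33.3% higher, against 16.2% and 17.1% of all named genes. In RF the shares were 28.6% and 28.6%, against 19.5% and 20.9%. RNAseq reads on the CDS only gave 29 RNAseq calls, 19 lower (15.6%) and 10 higher (8.2%), against 5.7% and 7.86% of all named genes. That setting reversed Zfp703 (0.12), and left 1 TE fall (0.826%, against 1.12% of all named genes). DESeq2 gave 33 RF calls, 23 lower (19%) and 10 higher (8.26%), against 9% and 13.1% of all named genes. It gave 1 TE call, 1 lower and 0 higher, among the 34 genes with an adjusted p, against 1.73% and 0.549% of all named genes. At least 300 reads left 68 genes in RF with 33 calls, 22 lower (32.4%) and 11 higher (16.2%), against 18.5% and 20.4% of all named genes. Library totals gave 11 RF rises (9.09%, against 12% of all named genes). Median log2 changes were then -0.39 in RNAseq and -0.66 in RF, with those of all named genes at -0.14 and -0.17. The cause of the other shifts was not tested.

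Leaving out each culture in turn gave 34 to 56 RNAseq calls (20 to 37 lower, 14 to 20 higher), 29 to 56 RF calls (19 to 40 lower, 10 to 16 higher) and 1 to 6 TE calls (1 to 4 lower, 0 to 2 higher), and median log2 changes of -0.285 to -0.230 in RNAseq, -0.499 to -0.422 in RF and -0.202 to -0.033 in TE. A lone KCl culture is then assumed to vary like the untreated ones. Baseline TE was 1.82 with RNAseq reads on the CDS and 1.499 with at least 50 footprints, and the 5′UTR ratio moved by less than the spread between cultures. Without the replicate block for culture, TE calls stayed at 3, and the correlation of paired deviations ran from -0.06 to 0.02 over cultures. Of 49 calls of named genes, 22 were kept under every alternative; over 551 alternative values 482 kept direction and call, 68 lost the call and 1 reversed.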
